A study of Homo sapiens with 3 samples.

Results

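The genes described here make, bind or sense retinoic acid or bind and oxidise fatty acids, and they were measured in LvM3b, a human colon adenocarcinoma cell line. They were ALDH1A1, ALDH1A3, FABP5, FABP1, CRABP2, RARA, RARB, RXRA and ACOX2, 9 of the 25200 targets that the bead array lists by a symbol. Every probe listed under 1 of these symbols was taken, 18 of 48803 probes on the array. The genes were picked with their differences between these arrays already known, so the differences are given as a description with no test.

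Total RNA came from 3 kinds of LvM3b culture: cells overexpressing miR-483-5p, cells overexpressing miR-551a, and control LvM3b cells. One microRNA is called miR-483 on its sample and miR-483-5p in the text of the series. All cultures were grown in DMEM with serum and taken at about 70% confluency. The sources used here do not say how each microRNA was overexpressed, what the control cells carried or whether each line was a pool or a clone. There was 1 array per group, so no value below carries an error and no difference could be set against a spread between replicates.

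Retinoic acid is made from vitamin A in successive oxidations: alcohol dehydrogenases and short-chain dehydrogenases turn retinol into retinal, and ALDH1A enzymes turn retinal into retinoic acid. Inside the cell, the acid is carried by small lipid-binding proteins. CRABP2 passes it to the retinoic acid receptors, which bind DNA as partners of the RXR receptors, whereas FABP5 can pass it to the fatty acid receptor PPARD. In the gut, ALDH1A activity marks part of the stem and progenitor cells, FABP1 is a product of absorptive cells, and ACOX2 starts the peroxisomal oxidation of branched-chain fatty acids and of the side chain of bile acid precursors.

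The mature sequence of the overexpressed miR-551a is shown because it defines one of the groups. RefSeq places it on the minus strand at chr1:3560710-3560730 of GRCh38.p14. Capitals mark the seed, bases 2 to 8, by which a microRNA pairs with its targets.
hsa-miR-551a: gCGACCCAcucuugguuucca

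Promoters of these genes were searched for short sequence motifs, which do not measure regulation. The retinoic acid receptors bind pairs of hexamers, and the windows searched were the 250 bases before each start of transcription in RefSeq (GRCh38.p14), on both strands. Of the 9 genes, 7 had 1 or more windows in that table, 13 windows in all. FABP5 and ACOX2 had none, so the search does not cover them. The hexamer searched was AGGTCA, and with it the variant GGGTCA, the variant GGTTCA and the variant AGTTCA. A direct repeat of any of these with 5 bases between the copies, the classical retinoic acid response element, was found in 1 of these 13 windows and in 26 of all 34943 windows (0.0744%). It lay in a window of RARB, from 53 to 37 bases before the start. The same hexamers spaced by 1 base, a form bound by PPAR and RXR, occurred in 0.0973% of all windows and in 0 of the 13, and those spaced by 2 bases in 0.0286% and in 0 of the 13. Single copies of the hexamers were common, in 33.8% of all windows and in 7 of the 13. The windows of ALDH1A1 and ALDH1A3 each held a CCAAT box, a general promoter element, 74 to 70 and 71 to 67 bases before the start. Besides these, a window of RARA held the box on the opposite strand, 78 to 74 bases before the start. The box was present in 3 of the 13 windows and 32.0% of all windows. These matches describe letters and not binding. The sequences below run 5′ to 3′ on the strand of the gene, with the repeat in capitals for RARB (plus strand, chr3:25428013-25428262) and the CCAAT box in capitals for ALDH1A1 (minus strand, chr9:72953054-72953303) and ALDH1A3 (plus strand, chr15:100879581-100879830).
RARB: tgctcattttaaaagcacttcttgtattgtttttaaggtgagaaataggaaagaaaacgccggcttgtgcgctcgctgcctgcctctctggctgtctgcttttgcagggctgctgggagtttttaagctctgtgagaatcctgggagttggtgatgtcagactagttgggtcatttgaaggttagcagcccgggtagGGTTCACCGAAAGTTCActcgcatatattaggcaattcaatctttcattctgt
ALDH1A1: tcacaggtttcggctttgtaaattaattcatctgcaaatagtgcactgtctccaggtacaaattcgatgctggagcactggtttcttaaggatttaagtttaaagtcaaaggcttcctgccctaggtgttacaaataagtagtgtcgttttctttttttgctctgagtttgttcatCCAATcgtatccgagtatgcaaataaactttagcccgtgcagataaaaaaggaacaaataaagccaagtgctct
ALDH1A3: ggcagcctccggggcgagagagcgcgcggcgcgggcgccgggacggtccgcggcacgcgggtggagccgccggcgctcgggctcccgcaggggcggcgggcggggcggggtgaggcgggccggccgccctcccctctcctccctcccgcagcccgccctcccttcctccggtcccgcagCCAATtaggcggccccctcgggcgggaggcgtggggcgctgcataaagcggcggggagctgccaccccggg

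Each array was read as probe intensities. A probe was called detected at a detection score above 0.99, the array's fraction for how far a probe stands above its background probes. The numbers of detected probes were 13291 in the miR-483-5p array, 13925 in the miR-551a array and 13814 in the control array, with median intensities of 88.0, 87.7 and 84.9. Colon epithelial markers were detected as the label says, 11 of 12 in each array, with KRT20 the exception. Of other cell types, 2 of 14 hepatocyte markers (SERPINA1 and FGA) and 0 of 5 adipocyte markers were detected in each array, as were 2 of 6 leukocyte markers (CD68 and LYZ). Of 6 fibroblast markers, 2 were detected with miR-483-5p (COL3A1 and LUM), 1 with miR-551a (LUM) and 1 in control (COL3A1). Their part in the differences below was not tested. No probe measured the overexpressed microRNAs.

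Among the members, 9 of 18 probes were detected, each in all 3 arrays, and 6 of 9 genes had at least 1 such probe. ALDH1A1 and FABP5 were higher, and ACOX2 lower, by at least 2-fold in both overexpressing arrays than in control. ALDH1A3 was higher by less than 2-fold, RARA and RXRA differed little, and FABP1, CRABP2 and RARB were not detected. The counts at 2-fold were 4 probes higher and 1 lower of 9 detected in each comparison with control. The same size was reached by 0.305% of all 13759 probes upwards and 0.414% downwards for miR-483-5p, and by 0.655% of 14039 upwards and 0.563% downwards for miR-551a. The 5 member probes passed it the same way in both comparisons, as did 0.232% of 14207 probes upwards and 0.275% downwards. Both comparisons use the same control array, and the members were chosen from them, so nothing is read from these counts. In RNA from whole cultures, fewer cells with a transcript and less of it per cell cannot be told apart.

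**Figure D1:**
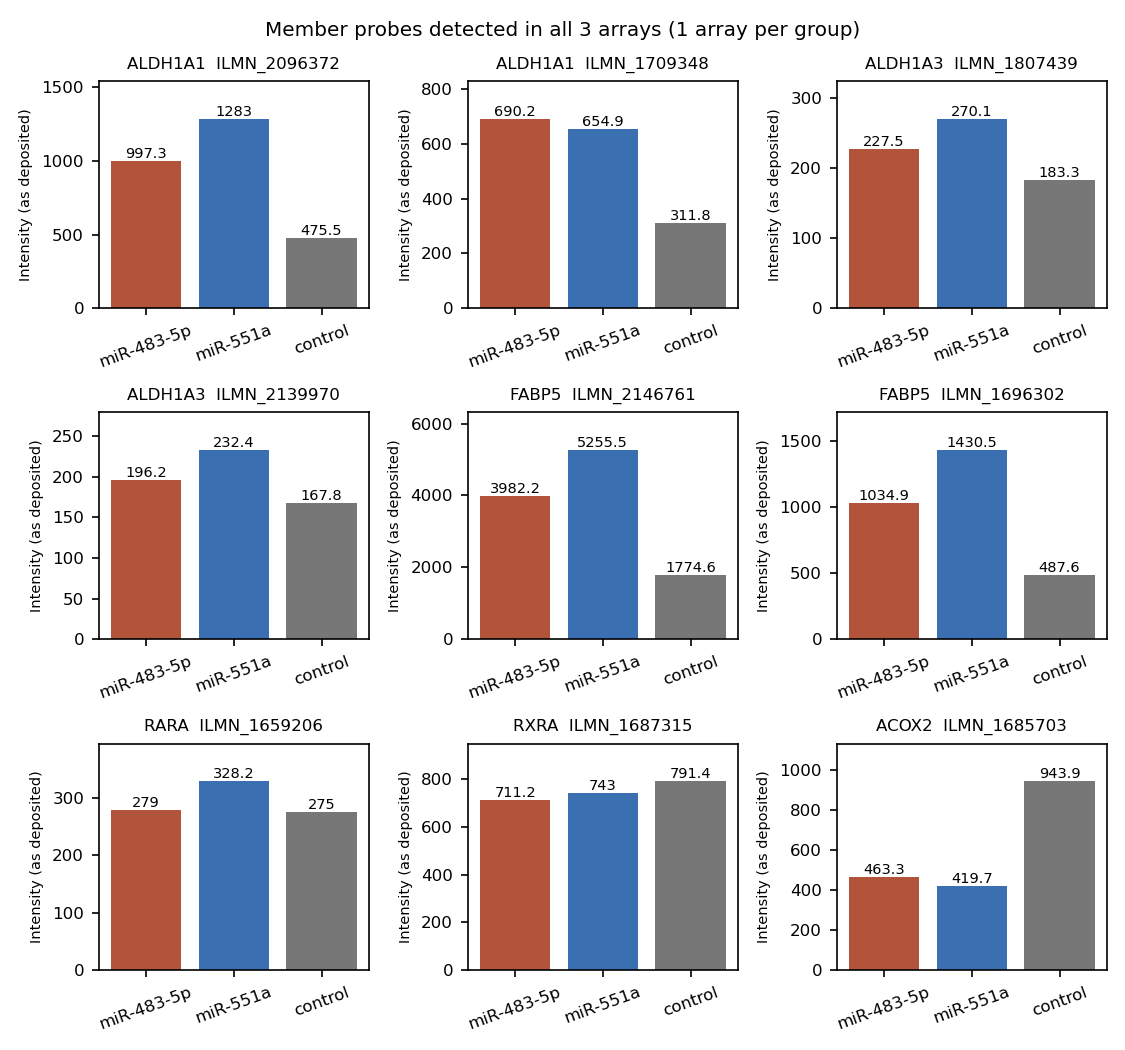
Intensity as deposited, on a linear axis from 0, of the 9 member probes detected in all arrays; bars are single arrays of miR-483-5p, miR-551a and control cells, with no error bars because each group has 1 array, and each panel has its own axis. At both ALDH1A1 and both FABP5 probes the overexpressing arrays stand at more than 2 times the control, and at ACOX2 the control array is the high one.

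ALDH1A1, the cytosolic retinal dehydrogenase, was higher in both overexpressing arrays at both of its probes. Probe ILMN_2096372 had an intensity of 997.3 with miR-483-5p and 1283 with miR-551a, against 475.5 in control. After background correction and quantile normalization this was 2.19-fold higher for miR-483-5p and 2.72-fold higher for miR-551a. Probe ILMN_1709348 read 690.2 for miR-483-5p and 654.9 for miR-551a, against 311.8 in control, 2.46-fold and 2.20-fold higher. The probes thus gave the same direction from control and different orders of the overexpressing arrays. The difference of miR-483-5p from miR-551a was -0.31 on the log2 scale at the first probe and 0.16 at the second, a gap of 0.47 between probes of 1 gene on the same arrays. The transcripts that each probe reads were not analysed here.

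ALDH1A3, a second retinal dehydrogenase, was higher by a smaller amount. Probe ILMN_1807439 had intensities of 227.5 with miR-483-5p and 270.1 with miR-551a, against 183.3 in control. Probe ILMN_2139970 had 196.2 for miR-483-5p and 232.4 for miR-551a, against 167.8 in control. The order of the arrays was the same at both probes, miR-551a above miR-483-5p above control. The log2 differences from control were 0.41 and 0.30 for miR-483-5p, and 0.69 and 0.60 for miR-551a. Both probes were past 1.5-fold for miR-551a (1.62-fold and 1.52-fold), a size that 4.7% of all probes reached upwards and 4.39% downwards, and neither was for miR-483-5p, where 2.94% reached it upwards and 2.78% downwards. The third enzyme of the group, ALDH1A2, differed by -0.21 for miR-483-5p and -0.29 for miR-551a at its detected probe, which read 126.8 and 124.9 in these arrays against 134.5 in control.

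FABP5, the epidermal fatty acid binding protein, had the highest of the detected member differences for miR-551a. Probe ILMN_2146761 read 3982.2 with miR-483-5p and 5255.5 with miR-551a, against 1774.6 in control. This was 2.15-fold higher for miR-483-5p and 2.78-fold higher for miR-551a. Probe ILMN_1696302 read 1034.9 for miR-483-5p and 1430.5 for miR-551a, against 487.6 in control, 2.21-fold and 2.95-fold higher. The log2 differences of the detected probes lay within 0.04 of each other for miR-483-5p and within 0.09 for miR-551a, a smaller gap than at ALDH1A1 (0.17 and 0.30). The remaining probe, ILMN_2146766, was below the detection threshold everywhere, with intensities of 107.2 for miR-483-5p and 104.4 for miR-551a, against 75.3 in control, and scores of 0.982, 0.986 and 0.509.

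FABP5 has near-identical copies elsewhere in the genome, and how far its probes also read them was not tested. The array lists 2 of them by name. FABP5L3 had intensities of 118.1 with miR-483-5p and 132.7 with miR-551a, where it was detected, against 104.3 in control, where it was not. FABP5L7 was not detected in any array.

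The other binding proteins were not measurable. FABP1, the liver and intestinal fatty acid binding protein, has 1 probe, ILMN_1678965. It read 81.0 with miR-483-5p and 82.5 with miR-551a, against 83.6 in control, below the detection threshold in each. CRABP2, which carries retinoic acid to its receptors, has 1 probe, ILMN_1690170. It read 83.7 for miR-483-5p and 94.4 for miR-551a, against 87.0 in control, and was not detected. The lowest intensity that any detected probe had was 117.6, 113.0 and 110.3 in these arrays, so a level under those values cannot be ordered between the groups. No ratio is given for these genes.

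The receptors showed no difference near 2-fold. RARA was detected at 1 of its 4 probes, ILMN_1659206, with 279.0 with miR-483-5p and 328.2 with miR-551a, against 275.0 in control. Its log2 differences from control were -0.03 for miR-483-5p and 0.21 for miR-551a. At its undetected probes, intensities for miR-483-5p, miR-551a and control were 76.7, 74.9 and 81.7 (ILMN_1716176) and 103.7, 88.1 and 88.1 (ILMN_1677197). At ILMN_1791902, also undetected, they were 70.3, 66.5 and 77.4. RXRA, the common partner of the retinoic acid, PPAR and vitamin D receptors, has 1 probe, ILMN_1687315. This probe read 711.2 for miR-483-5p and 743.0 for miR-551a, against 791.4 in control. It differed by -0.23 for miR-483-5p and -0.25 for miR-551a, the control array being the highest.

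RARB, both a retinoic acid receptor and a classical retinoic acid target through the repeat printed above, was not detected at any of its 3 probes. The brightest, ILMN_1699723, read 112.0 with miR-483-5p and 93.9 with miR-551a, against 96.9 in control. Its scores of 0.989, 0.962 and 0.976 came near the threshold of 0.99. At a detection p below 0.05 it counted as detected in all 3 arrays, and 4 of the 9 undetected member probes counted as detected in at least 1. The other 3 of these were FABP5 ILMN_2146766 in both overexpressing arrays, CRABP2 in the miR-551a array and RARA ILMN_1677197 in the miR-483-5p array. The remaining 5 stayed undetected. Among them, RARB ILMN_1671151 read 81.3 with miR-483-5p, 67.6 with miR-551a and 63.4 in control. RARB ILMN_2390526 read 68.6, 71.2 and 82.1 in the same order.

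**Figure D2:**
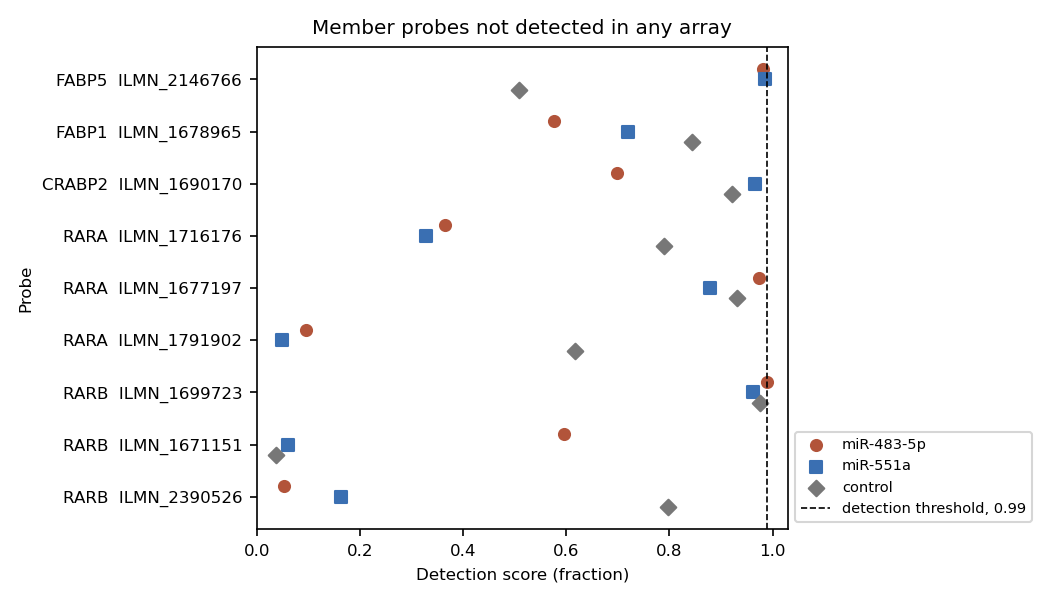
Detection score, a fraction from 0 to 1, of the 9 member probes not detected in any array, with 1 point for each of the miR-483-5p, miR-551a and control arrays and a dashed line at the threshold of 0.99. RARB ILMN_1699723 lies nearest the line for miR-483-5p (0.989) and control (0.976), and FABP5 ILMN_2146766 is nearest for miR-551a (0.986) and lies at 0.509 in control.

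ACOX2, the peroxisomal oxidase of branched chains and bile acid precursors, was the only member at least 2-fold lower than control. Its single probe, ILMN_1685703, read 463.3 with miR-483-5p and 419.7 with miR-551a, against 943.9 in control. It was 2.31-fold lower for miR-483-5p and 2.72-fold lower for miR-551a. The gene has no further probe with which to compare this value. ACOX3, a related peroxisomal oxidase, lay nearer to control and differed by 0.00 for miR-483-5p and -0.21 for miR-551a.

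**Figure D3:**
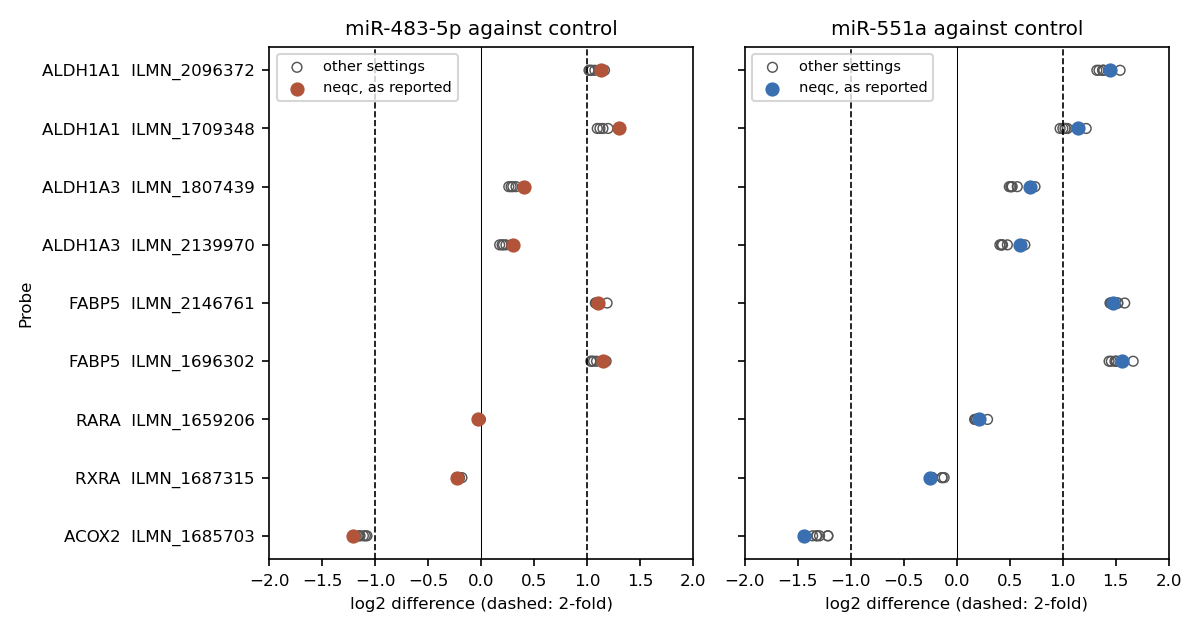
Log2 difference from control of the 9 detected member probes, for miR-483-5p on the left and miR-551a on the right; filled points are the reported values, open points the other processing settings, and dashed lines mark 2-fold. ALDH1A1, FABP5 and ACOX2 lie past the lines in all settings but 1, in which ALDH1A1 ILMN_1709348 for miR-551a is at 0.98.

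With miR-483-5p set against miR-551a directly, 0 of 9 detected member probes differed by 2-fold. Across all 13749 probes of this comparison, 0.0291% passed 2-fold upwards and 0.109% downwards. The log2 difference of miR-483-5p from miR-551a was -0.37 and -0.42 at the FABP5 probes and -0.29 and -0.30 at the ALDH1A3 probes. It was -0.24 for RARA and 0.24 for ACOX2. RXRA, at 0.02, changed sign with the scaling and reached -0.07. No member passed 1.5-fold here, which 1.1% of all probes did upwards and 1.16% downwards.

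The wider retinoid and fatty acid pathway was described by 11 lists holding 160 other genes, of which 96 were measured in each comparison with control. The measured genes were not wholly the same in both comparisons. Averaging the detected probes of each gene, 2 were at least 2-fold higher for miR-483-5p and 0 lower, and 0 were higher or lower for miR-551a. In these counts the lowest detected level of an array stands in for a lower, undetected value, which can make a change look smaller. Among all genes the shares were 0.287% upwards and 0.37% downwards for miR-483-5p (10806 genes), and 0.582% and 0.537% for miR-551a (10991 genes). At 1.5-fold, 3 list genes were higher and 4 lower for miR-483-5p, against 2.61% and 2.5% of all genes, and 2 were higher and 10 lower for miR-551a, against 4.27% and 4.09%. The median log2 difference over the 96 genes of each comparison was -0.06 for miR-483-5p and -0.13 for miR-551a. Over all genes it was 0.01 and -0.01. Under other settings the medians for retinol and retinal oxidation and retinoic acid targets and breakdown (miR-483-5p) and for the other ALDH genes (both comparisons) changed sign.

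Of the enzymes that oxidise or reduce retinol and retinal, 12 of 23 were measured, with medians of -0.11 for miR-483-5p and -0.12 for miR-551a. AKR1B10, an aldo-keto reductase that turns retinal back into retinol, read 1066.7 with miR-483-5p and 855.5 with miR-551a, against 446.4 in control. It was 2.53-fold higher for miR-483-5p and 1.88-fold higher for miR-551a. The brightest others were RDH11 (-0.19 and -0.37), AKR1C3 (0.47 and 0.12), RDH14 (-0.10 and -0.18) and DHRS4 (-0.11 and -0.06), each as log2 differences for miR-483-5p and then miR-551a. None of these 4 reached 1.5-fold.

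Further receptors and coregulators were measured in 15 of 20 cases, with medians of -0.06 for miR-483-5p and -0.14 for miR-551a. RXRB, a second partner of the retinoic acid receptors, had 1 probe, which read 231.3 with miR-483-5p and 173.1 with miR-551a, against 135.9 in control. It was 2.24-fold higher for miR-483-5p, a value that was 1.64-fold under median scaling without background correction, and 1.42-fold higher for miR-551a. PPARG, the fatty acid receptor of differentiated colon cells, differed by -0.21 for miR-483-5p and -0.36 for miR-551a, and PPARD, the receptor that FABP5 can serve, by -0.06 and 0.09. The coactivator NCOA3 and the corepressor NRIP1 lay between -0.19 and 0.03.

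Genes known to respond to retinoic acid were mostly not detected, with 7 of 20 measured for miR-483-5p and 8 of 20 for miR-551a (medians -0.06 and -0.11). The brightest were CDX1 (0.12 for miR-483-5p and -0.04 for miR-551a), a homeobox factor of the gut, and NRIP1 (-0.06 and -0.19). PLAAT3 and PLAAT4, listed on the array as HRASLS3 and RARRES3, encode phospholipid acyltransferases. PLAAT3 was 1.84-fold lower for miR-483-5p and 1.65-fold lower for miR-551a, and PLAAT4 1.81-fold and 1.55-fold lower. The CYP26 enzymes that break down retinoic acid were not detected; from that list only UGT2B7, which glucuronidates it, was measured, at 1.48-fold lower for miR-483-5p and 1.66-fold lower for miR-551a. DGAT1, which can esterify retinol, was the 1 measured gene of 13 for uptake and storage (-0.12 and -0.11).

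No measured gene of the lists of other ALDH genes and other lipid-binding proteins differed by 2-fold, and most of the latter list was not measured. Among 17 other ALDH genes 14 were measured, 7 above and 7 below 0 in each comparison, with medians of -0.01 for miR-483-5p and -0.06 for miR-551a. Their values ran from -0.32 to 0.53 for miR-483-5p and from -0.49 to 0.47 for miR-551a. The brightest were ALDH9A1 (0.09 and 0.04), ALDH3A2 (0.12 and 0.28), ALDH2 (-0.32 and -0.49) and ALDH7A1 (0.00 and -0.12). Of 14 other lipid-binding proteins 3 were measured: the acyl-CoA binding protein DBI (-0.11 and -0.23), the sterol carrier SCP2 (-0.04 and -0.44) and the bile acid binding protein FABP6 (-0.30 and 0.04).

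With undetected values replaced by the lowest detected level of their array, none of the further fatty acid genes reached 2-fold. ACSL6 ILMN_1737418 read 93.8 with miR-483-5p and 98.2 with miR-551a, both undetected, against 139.7 in control, where it was detected. For miR-483-5p its log2 difference was -0.55 with that replacement and -1.34 without it. In peroxisomal oxidation the median was 0.02 over 16 genes for miR-483-5p and -0.09 over 15 for miR-551a, with HSD17B4 (-0.04 and -0.27), PEX5 (0.14 and -0.02), PHYH (0.05 and 0.07) and ECI2 (-0.27 and -0.25) the brightest. Mitochondrial oxidation had medians of -0.12 for miR-483-5p and -0.10 for miR-551a over 16 genes, with ETFA (-0.12 and -0.39), ECHS1 (-0.13 and 0.05), ACADVL (0.16 and 0.03) and ACADM (0.04 and 0.24). Fatty acid uptake and activation had medians of -0.03 and -0.15 over 12 genes. Within it the acetyl-CoA synthetase ACSS2 was 1.73-fold lower for miR-483-5p and 1.74-fold lower for miR-551a, and ACSL3, ACSL4 and ACSL5 lay between -0.30 and 0.01. PPAR targets had medians of -0.04 and -0.13 over 15 genes, with the thiolase ACAA2 at 0.09 and -0.02.

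**Figure D4:**
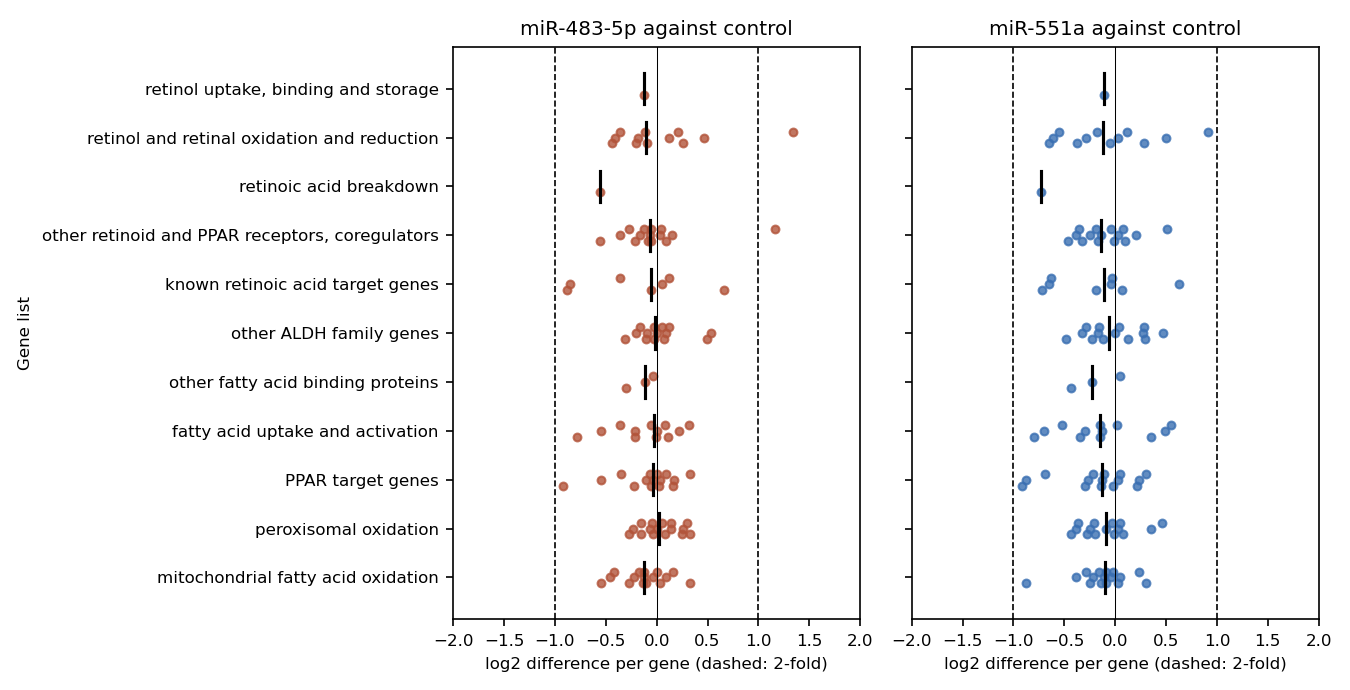
Log2 difference from control of each measured gene in the 11 pathway lists, for miR-483-5p on the left and miR-551a on the right; points are genes, black bars the list medians, dashed lines 2-fold, and a gene in several lists is drawn in each. The genes past 2-fold are AKR1B10 and RXRB for miR-483-5p, and for miR-551a there are 0.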

How the data were processed

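Total RNA of 3 LvM3b cultures was hybridised to Illumina bead arrays, 1 array per group, after isolation with the Ambion miRVANA kit and labelling with MessageAmp reagents of the same maker, per the labels' protocols. The authors deposited non-normalized probe intensity values with a detection score, a fraction from 0 to 1, per the file headers; 1 minus this score was read as a detection p. In the deposited normalized intensity table, identical to the series matrix, the miR-483 column equals the non-normalized miR-551a column times 0.934 at every probe, so it was not used. The miR-551a column is its own intensity times 0.968. The scanner software, array version and genome build are not stated in the labels or headers.

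The neqc function of limma 3.58.1 (R 4.3.3) was run on all 3 arrays (background from the detection scores, offset 16, quantile normalization, log2), which was checked on simulated arrays. Differences of log2 intensity are described at 2-fold. The offset makes them understate changes of dim probes. Comparisons used probes with a symbol that at least 1 of the compared arrays detected. Where 1 array did not detect a probe, the lowest detected level of that array replaced a lower value. Such a difference is a bound and can be smaller than the change itself. Single arrays allow no test, no p-value and no SD, and the number of arrays limits the precision. Of 25200 symbols, 15712 matched a current RefSeq symbol, 3021 an older one and 6467 none. All member probes are named, and of the 11 lists, genes past 2-fold and the 4 brightest; ALDH1A2, ACOX3 and PPARD are named as relatives of members outside this rule, chosen after their values were seen. The values of some genes that the rule names are not reported here. Members and lists were chosen with earlier results of these data known. Also tried were no background correction, normexp (offset 50), median scaling, median centring, offset 50, other detection filters, a 1.5-fold threshold and the deposited table.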

Additional observations from a re-analysis of the deposited data

Results flagged for a closer look

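RARA was singled out because, after normalization, its detected probe, ILMN_1659206, lay on opposite sides of control in the overexpressing arrays. As deposited, both overexpressing arrays read above control. The log2 difference was -0.0268 for miR-483-5p (279.0 against 275.0 in control as deposited) and 0.214 for miR-551a (328.2 against 275.0). Over the other settings the values ran from -0.03 to -0.01 and from 0.17 to 0.29. Each side is 1 array, both share the control array, and the difference was not tested.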

How the results depend on the processing

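No paired analysis was possible because each group has 1 array and no test was run. Of 225 member values recomputed under other settings, 224 kept their side of 2-fold and called values kept their direction. Filters on detection leave such a value as it is by construction. The miR-551a values from the deposited table equal those of median scaling and are not a separate check. The exception was ALDH1A1 ILMN_1709348 for miR-551a, 1.97-fold higher without background correction (log2 0.98); the cause was not tested. Over all settings that probe ran from 1.97-fold to 2.33-fold, the FABP5 probes from 2.05-fold to 2.28-fold for miR-483-5p and from 2.71-fold to 3.17-fold for miR-551a, and ACOX2 from 2.11-fold to 2.31-fold and from 2.32-fold to 2.72-fold lower. For miR-551a, 6 of 9 detected member probes were higher at 1.5-fold, against 4.7% of all 14039 probes. Among pathway list genes, those at least 2-fold higher for miR-483-5p fell to 1 without background correction, with normexp and offset 50, under median scaling and with offset 50, as RXRB fell short (1.64-fold to 1.86-fold). Under median centring 1 was higher for miR-551a, AKR1B10 at 2.03-fold. At 1.5-fold, which admits more genes by construction, 3 of 96 were higher and 4 lower for miR-483-5p, against 2.61% and 2.5% of all genes. For miR-551a, 2 of 96 were higher and 10 lower, against 4.27% and 4.09%. Under median centring the median log2 difference of all probes was 0.0709 for miR-551a, against -0.0043 as reported, the largest such move among the scalings tried. Probes near background, among them those of CRABP2, FABP1 and RARB, limit what can be ordered.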

Other observations

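Some genes of the pathway lists fell outside the rule for named genes and are given here because of their values, seen first. PDK4, the kinase that switches off pyruvate dehydrogenase and a PPAR target, read 286.7 with miR-483-5p and 335.6 with miR-551a, against 471.3 in control, a log2 difference of -0.92 and -0.69. ETFDH, which passes electrons from fatty acid oxidation to ubiquinone, read 783.6 for miR-483-5p and 667.4 for miR-551a, against 1074.9 in control (-0.55 and -0.88). In the other direction, ALDH1B1, a mitochondrial aldehyde dehydrogenase, was higher at both of its probes. Its gene mean differed by 0.53 for miR-483-5p and 0.47 for miR-551a. RARRES1, a retinoic acid responder, read 217.6 for miR-483-5p and 234.5 for miR-551a, against 157.4 in control, at its brightest probe. DHRS3, which returns retinal to retinol and is a retinoic acid target, read 162.2 for miR-483-5p and 146.6 for miR-551a, against 186.0 in control (-0.36 and -0.65). Each value comes from single arrays that share the control.

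AMACR, the racemase that prepares branched chains for ACOX2, was brighter in the miR-483-5p array than in the miR-551a array at all 3 of its probes. ILMN_1759670 read 465.1 with miR-483-5p and 385.4 with miR-551a, ILMN_2367172 264.3 and 185.2, and ILMN_1792741 213.8 and 151.6, with 367.7, 235.5 and 178.4 in control. The gene means differed from control by 0.30 for miR-483-5p and -0.36 for miR-551a.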
